A study of Mus musculus with 8 samples.

Results

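The 77 genes described here encode proteins of the mitochondrial ribosome, the ribosome that works inside mitochondria. They were chosen by name: every protein-coding gene whose mouse symbol begins with Mrpl or Mrps followed by a number was taken, and pseudogenes were left out. The annotation held 78 such symbols, and 77 of them were found among the 38924 genes of the deposited tables. Mrpl33 was not matched. The genes comprised 48 named for the large subunit (Mrpl) and 29 named for the small subunit (Mrps). All 77 passed the filter on low counts, which left 15208 genes for testing.

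The mitochondrial ribosome translates the few mRNAs of the mitochondrial genome, which encode core subunits of the respiratory chain and of ATP synthase. Its ribosomal RNAs are transcribed inside mitochondria, but its proteins are encoded in the nucleus, translated on cytosolic ribosomes and imported. An mRNA of this family can therefore be caught on a tagged cytosolic ribosome, whereas the mRNAs and ribosomal RNAs made inside mitochondria are not cargo of cytosolic ribosomes. Motor neurons, with their long axons, have a high demand for mitochondrial energy.

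Messenger RNA bound to HA-tagged ribosomes was sequenced from whole spinal cord of 8 mice on the background B6.CgxB6.129. All carried an Rpl22 allele that Cre recombinase makes HA-tagged, and the series design also names Gars+/+. The entries list Rpl22 +/- and, with Cre, Chat +/- or, without it, Chat +/+. Chat-Cre acts in cells that make acetylcholine, and the motor neurons are among those of the spinal cord. Mice with Cre and a crushed sciatic nerve on 1 side were animals 35 (18 weeks old) and 52 (9 weeks), and mice without Cre and with a crushed nerve were 51 and 58 (both 9 weeks). Mice with Cre and no crush were 10 and 3, and mice without Cre and without crush were 4 and 6, all 8 weeks old. Libraries without Cre measure mRNA that comes down without a tag. How long after crush the cords were taken is not stated there, and crush cannot be told apart from age or from a number that only the uncrushed titles carry. Each library is numbered as 1 animal.

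Groups follow the sample titles. For 2 uncrushed animals, 3 (with Cre by its title) and 4 (without), the genotype entry says the opposite of the title, so the calls in uncrushed cord are also given without both. Chat followed the titles: in crushed cords it was at 78.2 and 90.9 CPM (counts scaled to the library's effective total) with Cre and 5.16 and 3.83 without, and in uncrushed cords at 97.7 and 126 with Cre and 4.29 and 4.81 without. Mnx1, a transcription factor of motor neurons, was at 0 in both no-Cre uncrushed libraries. Library totals ran from 4826979 to 11522721 expected counts. The 77 genes together took 0.2104 and 0.177% of counts in crushed cords with Cre and 0.0999 and 0.0777% in those without, and 0.167 and 0.165% in uncrushed cords with Cre and 0.0539 and 0.0663% in those without. The median member had 291 and 167 counts in crushed cords with Cre and 41 and 46 in those without, and 136 and 155 in uncrushed cords with Cre and 21 and 30.0 in those without, so values without Cre are the less precise ones.

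Promoters of 68 of the 77 genes were found in RefSeq (build GRCm38.p6), each 300 bases long, with 250 bases before and 50 after the start of the gene. Short motifs were searched on both strands, 3 of them of factors known from nuclear genes of mitochondria. These 3 were GCGCNNGCGC for NRF1, CCGGAAG for the ETS family and AAGATGG for YY1. At least 1 of them was in 42 of the 68 promoters (61.8%), against 32.01% of the 11132 promoters of tested genes and 19.8% of all 27025 promoters in the table. The ETS motif was in 24 of the 68 (35.3%, against 16.8% of tested genes), the NRF1 motif in 14 (20.6% against 12.8%) and the YY1 motif in 13 (19.1% against 7.03%). TATAAA was in 4 of the 68 (5.88% against 7.17%), CCAAT in 26 (38.2% against 38.5%) and GGGCGG in 34 (50% against 62.8%). At least 1 of the 3 motifs was in 21 of the 31 promoters of members called higher with Cre in both uncrushed and crushed cord. These shares describe letters in a window and are no evidence of binding.

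The promoters below belong to the large-subunit genes with the smallest p between Cre and no-Cre libraries (Mrpl17 uncrushed and Mrpl21 crushed), the small-subunit gene with the smallest p in uncrushed libraries (Mrps31), and the gene called lower (Mrpl48). Matches to the 3 motifs are in capitals.
Mrpl17 promoter (chr7:105811038-105811337, minus strand): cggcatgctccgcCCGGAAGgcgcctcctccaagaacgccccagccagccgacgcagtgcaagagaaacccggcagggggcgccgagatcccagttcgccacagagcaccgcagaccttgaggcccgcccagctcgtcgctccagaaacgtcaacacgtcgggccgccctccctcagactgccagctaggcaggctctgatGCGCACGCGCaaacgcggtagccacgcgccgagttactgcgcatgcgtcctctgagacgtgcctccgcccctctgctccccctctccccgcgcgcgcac
Mrpl21 promoter (chr19:3282792-3283091, plus strand): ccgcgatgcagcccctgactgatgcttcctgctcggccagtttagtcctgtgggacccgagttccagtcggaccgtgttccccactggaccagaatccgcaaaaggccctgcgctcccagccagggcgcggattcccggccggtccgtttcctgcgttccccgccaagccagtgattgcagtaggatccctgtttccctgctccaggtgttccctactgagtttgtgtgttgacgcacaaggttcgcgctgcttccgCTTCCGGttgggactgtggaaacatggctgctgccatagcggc
Mrps31 promoter (chr8:22411090-22411389, plus strand): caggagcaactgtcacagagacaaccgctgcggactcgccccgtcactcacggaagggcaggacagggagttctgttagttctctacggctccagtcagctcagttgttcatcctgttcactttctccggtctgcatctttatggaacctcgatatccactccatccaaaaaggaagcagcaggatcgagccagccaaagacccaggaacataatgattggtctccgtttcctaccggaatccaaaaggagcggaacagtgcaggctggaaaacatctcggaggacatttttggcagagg
Mrpl48 promoter (chr7:100608252-100608551, minus strand): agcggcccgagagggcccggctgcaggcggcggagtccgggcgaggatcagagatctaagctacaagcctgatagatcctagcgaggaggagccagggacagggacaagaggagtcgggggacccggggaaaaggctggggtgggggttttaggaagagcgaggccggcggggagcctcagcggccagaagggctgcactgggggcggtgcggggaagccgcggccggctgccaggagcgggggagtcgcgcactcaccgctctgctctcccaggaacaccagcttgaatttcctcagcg
In Mrpl17 the capitals mark an ETS match, 237 bases before the start, and an NRF1 match, 49 bases before it. In Mrpl21 they mark an ETS match on the opposite strand, on base 8 after the start. The windows of Mrps31 and Mrpl48 hold no match to these 3 motifs. The window of Mrps14, which is not printed, holds none either. Among the small-subunit genes with a promoter found, Mrps14 had the smallest p in crushed libraries.

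In uncrushed cord, mRNAs for mitochondrial ribosomal proteins were for the most part more abundant in precipitates with Cre than without. Of the 77 genes, 42 were called higher at an adjusted p of 0.05 in edgeR's quasi-likelihood test (Benjamini-Hochberg, over 15208 genes) and 1, Mrpl48, was called lower. Among all genes tested 20.6% were called higher and 21.9% lower. The median log2 fold change of the members was 1.23, against -0.03 over all genes, and 72 of the 77 were above 0. Both Cre libraries lay above both no-Cre libraries for 64 members (36.2% of all genes did) and below both for 1 (35% of all genes). Values after ± are approximate standard errors of log2 fold changes.

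The precipitates with Cre also held more of the mRNA of cholinergic neurons and less of that of other cells. Of the 7 cholinergic and motor neuron markers 6 were called higher, and their summed level was 1924 and 2062 CPM in uncrushed cords with Cre, against 163 and 117 CPM in uncrushed cords without Cre. All 6 oligodendrocyte markers were called lower (866 and 701 CPM with Cre, against 7650.3 and 6626 CPM without), as were all 6 astrocyte markers (207 and 190.1 against 1406 and 2369 CPM), all 6 microglial markers (3.77 and 4.19 against 45.2 and 72.9 CPM) and 5 of 6 endothelial markers (9.11 and 7.402 against 101 and 69.2 CPM). In such bulk precipitates, a difference in the number of cells of a type and a difference in mRNA per cell cannot be told apart. The part of this difference in cell types in the member values was not tested.

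Among the large-subunit genes, 27 of 48 were called higher in uncrushed cord. Mrpl17 (ENSMUSG00000030879), a protein near the exit of the peptide tunnel, had 64.01 and 51.5 CPM in uncrushed cords with Cre, against 11.7 and 13.6 CPM in uncrushed cords without Cre. Its log2 fold change was 2.18 ± 0.26 (adjusted p = 0.000143), which is 4.53-fold higher with Cre. The 2 groups stood far apart, and the libraries within each were close. Mrpl21 (ENSMUSG00000024829), a protein with a bacterial counterpart, had 42.4 and 42.5 CPM in uncrushed cords with Cre, against 8.97 and 12.8 CPM in uncrushed cords without Cre (log2 fold change 1.94 ± 0.30, adjusted p = 0.000562). Mrpl41, a protein found only in mitochondrial ribosomes, had 81.1 and 62.5 CPM in uncrushed cords with Cre, against 21.4 and 14.4 CPM in uncrushed cords without Cre (log2 fold change 2.01 ± 0.33, adjusted p = 0.00092). For both genes each Cre library was well above each no-Cre library. Mrpl35 was the most even of the leading genes, with 74.7 and 67.4 CPM in uncrushed cords with Cre, against 26.9 and 32.6 CPM in uncrushed cords without Cre (log2 fold change 1.25 ± 0.23, adjusted p = 0.00168).

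By position in the large subunit, 5 of the 8 genes of the peptide exit tunnel were called higher. Of 8 genes of the central protuberance 4 were called higher and 1 lower. Of 5 genes of the stalk, where translation factors bind, 2 were called higher. Among all members 54.5% were called higher, and among all genes 20.6% were called higher and 21.9% lower. The positions were not compared by a test. Mrpl44, an exit tunnel protein, had 13.1 and 12.2 CPM in uncrushed cords with Cre, against 2.73 and 3.21 CPM in uncrushed cords without Cre (log2 fold change 2.07 ± 0.45, adjusted p = 0.00398). Mrpl45, which holds the ribosome to the inner membrane, had 17.3 and 16.8 CPM in uncrushed cords with Cre, against 11.3 and 8.28 CPM in uncrushed cords without Cre, a log2 fold change of 0.81 ± 0.37 that was not called (adjusted p = 0.0942). The groups of Mrpl45 did not overlap, and its unadjusted p was 0.0484. In the stalk, Mrpl10 was called higher (log2 fold change 1.22 ± 0.34, adjusted p = 0.0138). Mrpl12, the repeated stalk protein that elongation factors touch, was at 53.1 and 35.3 CPM in uncrushed cords with Cre, against 21.4 and 13.4 CPM in uncrushed cords without Cre, and was not called (log2 fold change 1.36 ± 0.59, adjusted p = 0.0812). Mrpl11, at the base of the stalk, was not called either (0.90 ± 0.36, adjusted p = 0.0623).

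In the central protuberance, Mrpl58 rose: it encodes a peptidyl-tRNA hydrolase that can release stalled peptides, and had 12.7 and 11.1 CPM in uncrushed cords with Cre, against 3.899 and 5.88 CPM in uncrushed cords without Cre (log2 fold change 1.26 ± 0.37, adjusted p = 0.018). Mrpl18 rose as well (1.30 ± 0.35, adjusted p = 0.0126), while Mrpl38 was not called (1.02 ± 0.46, adjusted p = 0.094). Mrpl3, which reaches towards the peptidyl transferase centre, had 23.3 and 23.96 CPM in uncrushed cords with Cre, against 5.07 and 13.4 CPM in uncrushed cords without Cre (log2 fold change 1.31 ± 0.38, adjusted p = 0.0168). Of the large-subunit genes with a bacterial counterpart 18 of 29 were called higher and none lower, and of those found only in mitochondria 10 of 21 were called higher and 1 lower. The member with the highest log2 fold change, Mrpl54 (3.07 ± 0.81, adjusted p = 0.0108), had 0 and 6 counts in uncrushed cords without Cre, so its size is uncertain.

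Among the small-subunit genes, 15 of 29 were called higher in uncrushed cord and none lower. Mrps31 (ENSMUSG00000031533), found only in mitochondrial ribosomes, had 26.4 and 24.7 CPM in uncrushed cords with Cre, against 5.07 and 2.14 CPM in uncrushed cords without Cre (log2 fold change 2.89 ± 0.42, adjusted p = 0.000445), 7.41-fold higher. Mrps17, with a bacterial counterpart, had 24.1 and 19.2 CPM in uncrushed cords with Cre, against 4.29 and 5.34 CPM in uncrushed cords without Cre (log2 fold change 2.15 ± 0.39, adjusted p = 0.00148). In both genes the Cre libraries lay several times above the no-Cre libraries. Mrps34 (ENSMUSG00000038880), a small-subunit protein specific to mitochondria, had 9.24 and 11.3 CPM in uncrushed cords with Cre, against 0.7798 and 2.14 CPM in uncrushed cords without Cre (log2 fold change 2.72 ± 0.53, adjusted p = 0.0023), with only 2 and 8 counts in uncrushed cords without Cre. Mrps12, a protein of the decoding centre, had 30.3 and 26.1 CPM in uncrushed cords with Cre, against 11.3 and 10.7 CPM in uncrushed cords without Cre (log2 fold change 1.36 ± 0.45, adjusted p = 0.0307). Mrps16 rose also, with Cre libraries that differed widely from each other (16.8 and 5.84 CPM in uncrushed cords with Cre, against 1.17 and 2.67 CPM in uncrushed cords without Cre; log2 fold change 2.48 ± 0.67, adjusted p = 0.0127). Mrps7 of the subunit's head, Mrps22 and Mrps28 were not called, at log2 fold changes of 0.57 ± 0.34 (adjusted p = 0.204), 1.38 ± 0.54 (adjusted p = 0.0579) and 1.14 ± 0.65 (adjusted p = 0.173).

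Some symbols do not say where the protein sits. The 3 paralogues of bacterial S18 are Mrps18a, which lies in the large subunit, and Mrps18b and Mrps18c, which lie in the small subunit. Mrps18a had 14.4 and 14.7 CPM in uncrushed cords with Cre, against 2.34 and 5.61 CPM in uncrushed cords without Cre and rose (log2 fold change 1.82 ± 0.44, adjusted p = 0.00689). Mrps18b rose too (2.05 ± 0.63, adjusted p = 0.0223), and Mrps18c was not called (0.64 ± 0.34, adjusted p = 0.15). Mrps30, also a large-subunit protein by structure, was not called (0.80 ± 0.42, adjusted p = 0.15). Mrps36, which is known as a subunit of the 2-oxoglutarate dehydrogenase complex, was not called (0.61 ± 0.39, adjusted p = 0.222).

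**Figure D1:**
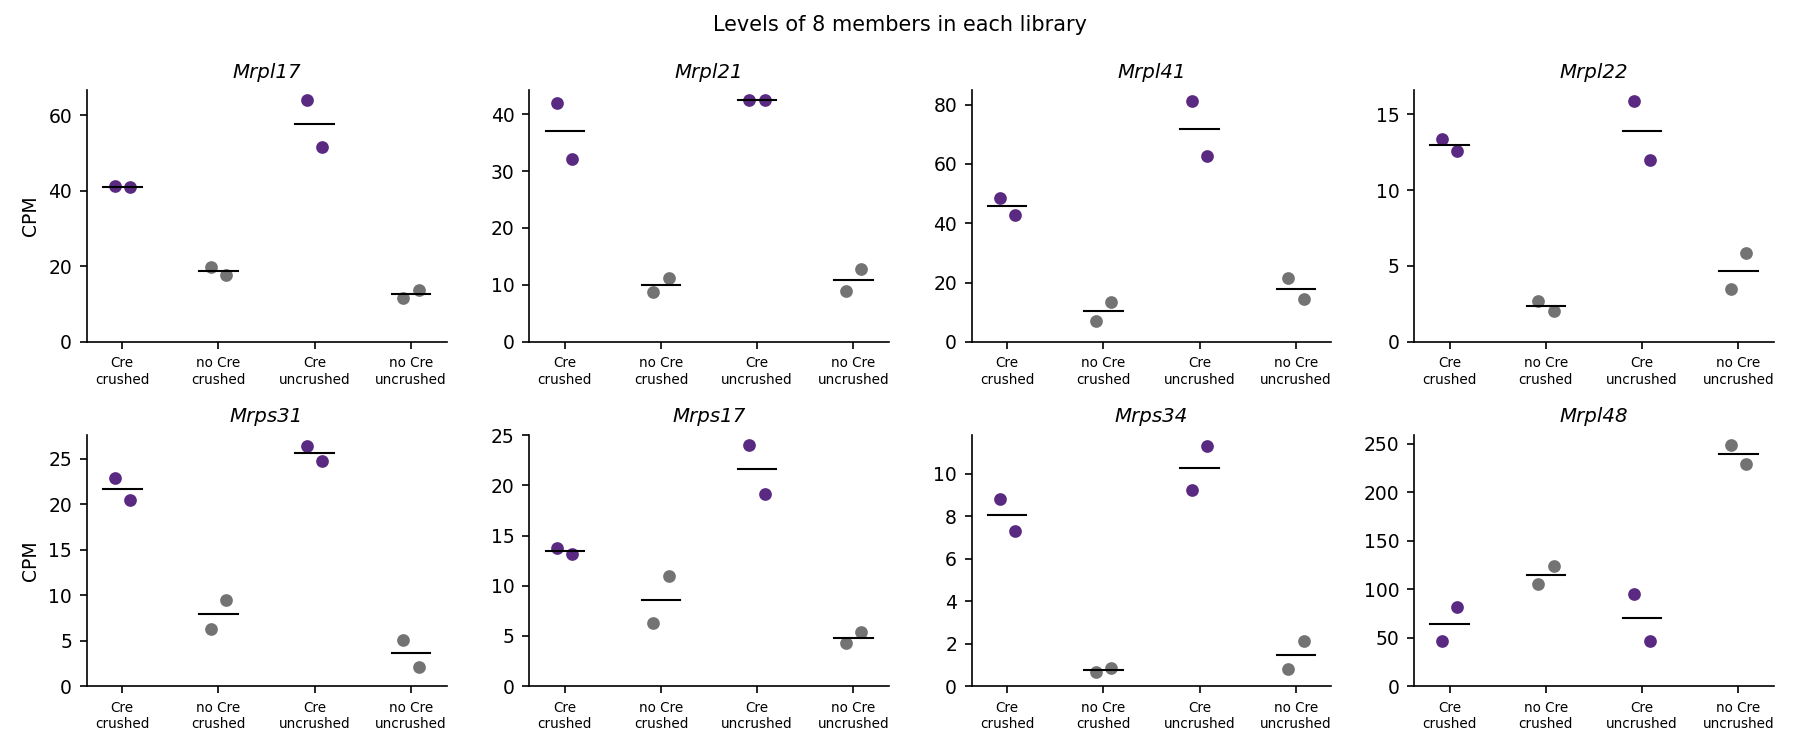
Levels in CPM (vertical axis, from 0) of 8 members in each of the 8 libraries, with purple points for Cre, grey points for no Cre and a line at the mean of each group of 2. In 7 members both Cre groups lie above both no-Cre groups, and Mrpl48 shows the opposite order, with 249.2 and 228.9 CPM in uncrushed cords without Cre.

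The number of calls in uncrushed cord depended on the libraries in the fit. Fitted with the uncrushed libraries alone, 28 of 76 members tested were called higher (36.8%, against 18.5% of all genes) and 1 lower. It also depended on single libraries. Without Cre uncrushed animal 10, 21 members were called higher (27.3%, against 13.8% of all genes), and without animal 3, 26 (33.8%, against 12.4%). Without both libraries whose genotype entry contradicts the title, 26 members were called higher (33.8%, against 10.3% of all genes), and the median log2 fold change was 1.36.

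In crushed cord the members stood in the same way. Of the 77 genes, 47 were called higher with Cre than without and none lower, where 21.6% of all genes were called higher and 21.3% lower. Their median log2 fold change was 1.24, against -0.08 over all genes. Both Cre libraries lay above both no-Cre libraries for 67 members (37.9% of all genes) and below both for 2 (40.3% of all genes). Cholinergic and motor neuron markers summed to 1848 and 1694 CPM with Cre, against 63.2 and 128 CPM without, and oligodendrocyte markers to 1079 and 1793 CPM with Cre, against 4405 and 6198 CPM without. Astrocyte markers summed to 342 and 488 against 3063 and 2413 CPM, microglial to 9.304 and 11.2 against 89.8 and 112 CPM and endothelial to 16.5 and 23.7 against 114 and 94.5 CPM. The part of these cell types in the member values was not tested.

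In the crushed cord 33 of 48 large-subunit and 14 of 29 small-subunit genes were called higher. Mrpl21 had 41.96 and 32.04 CPM in crushed cords with Cre, against 8.82 and 11.2 CPM in crushed cords without Cre (log2 fold change 1.89 ± 0.28, adjusted p = 0.000515), and Mrpl41 had 48.6 and 42.9 CPM in crushed cords with Cre, against 7.06 and 13.5 CPM in crushed cords without Cre (log2 fold change 2.16 ± 0.33, adjusted p = 0.000595). Mrps34 had 8.798 and 7.28 CPM in crushed cords with Cre, against 0.679 and 0.833 CPM in crushed cords without Cre (log2 fold change 3.40 ± 0.53, adjusted p = 0.000673). That 10.5-fold difference was the highest among the members, and it rests on 5 counts in each crushed cord without Cre. Mrpl22, of the exit tunnel, had 13.4 and 12.6 CPM in crushed cords with Cre, against 2.71 and 1.999 CPM in crushed cords without Cre (log2 fold change 2.44 ± 0.40, adjusted p = 0.000848). Mrpl30 had 37.4 and 22.8 CPM in crushed cords with Cre, against 5.56 and 8.996 CPM in crushed cords without Cre (log2 fold change 2.06 ± 0.35, adjusted p = 0.0011), and Mrpl36 had 15.001 and 13.1 CPM in crushed cords with Cre, against 3.12 and 2.83 CPM in crushed cords without Cre (log2 fold change 2.23 ± 0.39, adjusted p = 0.00124). In each of these 6 genes both Cre libraries lay above both no-Cre libraries.

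By position, 6 of 8 exit tunnel genes, 4 of 8 central protuberance genes and 3 of 5 stalk genes were called higher in crushed cord. Among all members 61% were called higher, and among all genes 21.6%. Mrpl45 was called here (1.64 ± 0.36, adjusted p = 0.0047), as were Mrpl44 (1.52 ± 0.40, adjusted p = 0.0116), Mrpl10 (1.02 ± 0.31, adjusted p = 0.0232) and Mrpl11 (1.37 ± 0.36, adjusted p = 0.0106). Mrpl12 again was not (1.33 ± 0.58, adjusted p = 0.0828), and its no-Cre crushed libraries, at 2.71 and 17.5 CPM, lay far apart. Mrpl58 had 11.1 and 11.7 CPM in crushed cords with Cre, against 10.9 and 13.7 CPM in crushed cords without Cre, with groups that overlapped (log2 fold change -0.10 ± 0.32, adjusted p = 0.821). In the small subunit, Mrps22 was called higher (2.27 ± 0.51, adjusted p = 0.00516), with 21.8 and 14.1 CPM in crushed cords with Cre, against 2.85 and 4.66 CPM in crushed cords without Cre, and so were Mrps12 (1.92 ± 0.46, adjusted p = 0.00682), Mrps7 (1.07 ± 0.32, adjusted p = 0.0208) and Mrps36 (1.55 ± 0.38, adjusted p = 0.00802). All 3 paralogues of S18 were called higher, at 1.91 ± 0.40 for Mrps18a (adjusted p = 0.00348), 2.10 ± 0.58 for Mrps18b (adjusted p = 0.0143) and 1.37 ± 0.34 for Mrps18c (adjusted p = 0.00786). Mrps28 and Mrps30 were not called (1.24 ± 0.63, adjusted p = 0.13, and 0.81 ± 0.40, adjusted p = 0.122).

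Here too the number of calls depended on the libraries in the fit. Fitted with the crushed libraries alone, 53 members were called higher (68.8%, against 25.4% of all genes) and 2 lower. It also depended on single libraries. Without Cre crushed animal 35, 14 members were called higher (18.2%, against 10.8% of all genes), and without no-Cre crushed animal 51, 23 (29.9%, against 14%). With age as a covariate, which sets the 18-week animal 35 apart, 15 were called (19.5%, against 11.3%).

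The uncrushed and crushed comparisons share no library. Both come from 1 fit over all 8 libraries with the same filter and a shared estimate of spread, so the calls are not independent. Called higher in both were 35 genes, which is 83.3% of the 42 in uncrushed and 74.5% of the 47 in crushed cord, and they comprised 25 large-subunit and 10 small-subunit genes. Only in the uncrushed comparison were Mrpl32, Mrpl58, Mrps11, Mrps17, Mrps23, Mrps25 and Mrps27 past the threshold. Only in the crushed comparison were 12 past it, among them Mrpl11, Mrpl45, Mrps7 and Mrps22. For none of these genes did the test of the difference between the comparisons, given below, call a change. Called higher in neither were 23, among them Mrpl12, Mrpl48, Mrps5 and Mrps35. Across the 77 genes the log2 fold changes of the 2 comparisons had a Pearson r of 0.591 and a Spearman rho of 0.534, as a description, since genes are not independent replicates and low counts without Cre enter both.

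**Figure D2:**
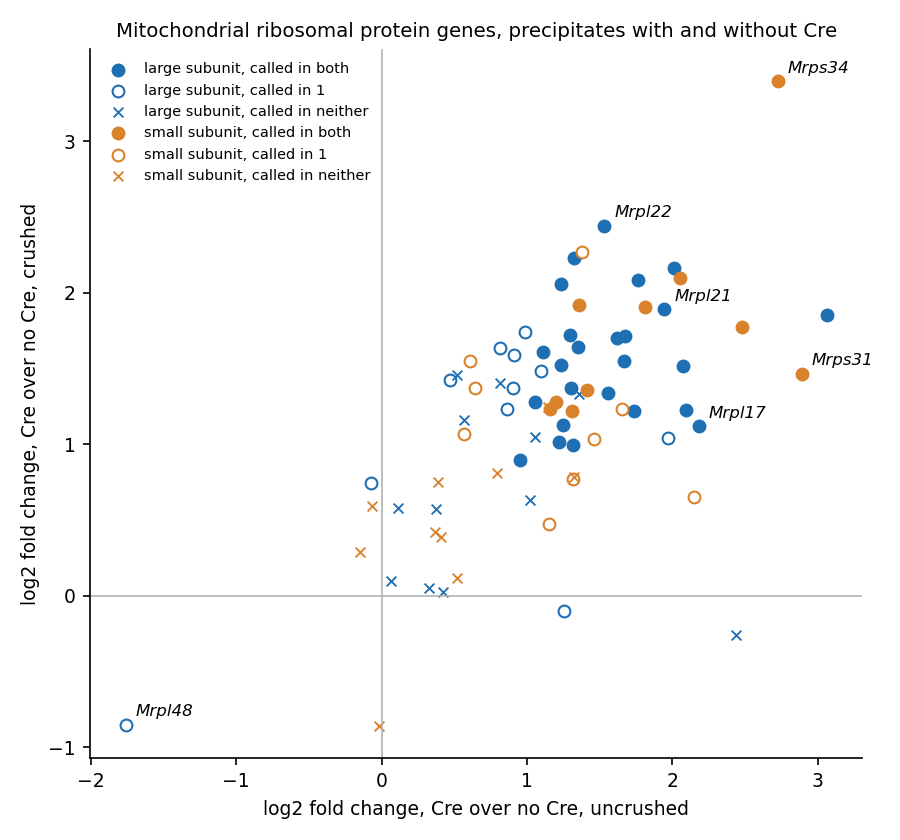
Log2 fold change of each of the 77 members, Cre over no Cre, in uncrushed (horizontal axis) and crushed (vertical axis) libraries; colour gives the subunit by symbol and the fill gives the calls at an adjusted p of 0.05. Of the 77 points 70 lie above 0 on both axes, and 2, Mrpl48 (at -1.76 and -0.85) and Mrps35 (at -0.02 and -0.86), lie below 0 on both.

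Mrpl48 (ENSMUSG00000030706), a protein of the central protuberance specific to mitochondria, was the 1 member called lower with Cre. It had 94.97 and 46.3 CPM in uncrushed cords with Cre, against 249 and 229 CPM in uncrushed cords without Cre, and it fell with Cre (log2 fold change -1.76 ± 0.35, adjusted p = 0.00267). In crushed cord it had 46.1 and 81.3 CPM in crushed cords with Cre, against 106 and 124 CPM in crushed cords without Cre, and the difference was not called (log2 fold change -0.85 ± 0.35, adjusted p = 0.067). In both comparisons both Cre libraries lay below both no-Cre libraries, and the libraries within each Cre group differed widely from each other. Without both libraries with contradictory entries the uncrushed difference was not called (log2 fold change -1.23, adjusted p = 0.0795). The crushed difference was called lower by the DESeq2 Wald test (adjusted p = 0.0417), without a filter on low counts (adjusted p = 0.0332) and with only the groups compared in the fit (adjusted p = 0.04998). It was also called without Cre crushed animal 52 (log2 fold change -1.27, adjusted p = 0.0421), whereas without animal 35 it was -0.46 (adjusted p = 0.458). Mrps35, a small-subunit protein specific to mitochondria that was singled out after its values were seen, was the other member below both no-Cre libraries in crushed cord. It had 6.899 and 6.49 CPM in crushed cords with Cre, against 10.99 and 13.3 CPM in crushed cords without Cre (log2 fold change -0.86 ± 0.33, adjusted p = 0.0559). In uncrushed cord its groups overlapped, at 11.2 and 8.57 CPM in uncrushed cords with Cre, against 11.3 and 8.81 CPM in uncrushed cords without Cre (log2 fold change -0.02 ± 0.35, adjusted p = 0.969). Mitochondrially encoded mRNA stood in the same order as Mrpl48 within each of the 4 groups. The 13 mRNAs encoded in mitochondria summed to 4740.2 and 7707 CPM in Cre crushed animals 35 and 52, where Mrpl48 was at 46.1 and 81.3, and to 33319 and 15476 CPM in Cre uncrushed animals 10 and 3, where Mrpl48 was at 94.97 and 46.3. Between groups the order did not hold: animal 52 had less of these mRNAs than animal 3 but more Mrpl48. How many other genes share the order within groups of 2 libraries was not counted. The part of these mRNAs in the Mrpl48 values was not tested.

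The deposited length of Mrpl48, the average over its transcripts weighted by their estimated share, was 1043 and 848 bases in crushed cords with Cre and 772 and 827 bases in crushed cords without Cre, and 875 and 986 bases in uncrushed cords with Cre and 734 and 766 bases in uncrushed cords without Cre. Every library with Cre thus had the longer estimate. Longer in both Cre libraries than in both no-Cre libraries were 12 of the 77 members in uncrushed (15.2% of all genes) and 12 in crushed cord (18.1%), and shorter were 10 (10.2%) and 14 (12.5%). The annotated span of Mrpl48, introns included, also overlaps that of Rab6a, which has more counts, on the opposite strand. Whether the 2 genes share exons was not examined. The part of Rab6a reads in the Mrpl48 values was not tested.

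Summed over each subunit, both were higher with Cre than without in every pairing of libraries. The large-subunit genes summed to 1173 and 994 CPM in uncrushed cords with Cre, against 732 and 654 CPM in uncrushed cords without Cre, and the small-subunit genes to 614 and 547 against 299 and 267 CPM. In crushed cord the large-subunit sums were 1004 and 883 CPM with Cre, against 434 and 564 CPM without, and the small-subunit sums 530.1 and 436 against 220.3 and 273 CPM. The groups did not overlap in any of these pairs. With 2 libraries against 2 an exact two-sided permutation test cannot go below 0.333, so no test is given for the sums.

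The ratio of the large to the small sum was 1.91 and 1.82 in uncrushed cords with Cre, against 2.45 and 2.44 in uncrushed cords without Cre. In crushed cord it was 1.89 and 2.03 with Cre, against 1.97 and 2.07 without, and these groups overlapped. The uncrushed cords without Cre stood above the other 3 groups. Mrpl48 alone was 34.03 and 35.02% of the large sum in uncrushed cords without Cre, against 8.09 and 4.66% in uncrushed cords with Cre. With Mrpl48 left out, an alternative chosen after seeing the data, the ratio was 1.76 and 1.73 in uncrushed cords with Cre and 1.62 and 1.59 in uncrushed cords without Cre. In crushed cord it was then 1.81 and 1.84 with Cre and 1.49 and 1.61 without. The order was thereby turned: with Mrpl48 left out, every Cre library had a higher ratio than every no-Cre library. Gene by gene, the medians of the 2 subunits were close: the large-subunit median log2 fold change was 1.23 and the small-subunit median 1.199 in uncrushed cord, and they were 1.35 and 1.22 in crushed cord. With Mrps18a and Mrps30 counted as large-subunit and Mrps36 left out, the medians were 1.23 and 1.25 in uncrushed, and 1.35 and 1.14 in crushed cord.

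**Figure D3:**
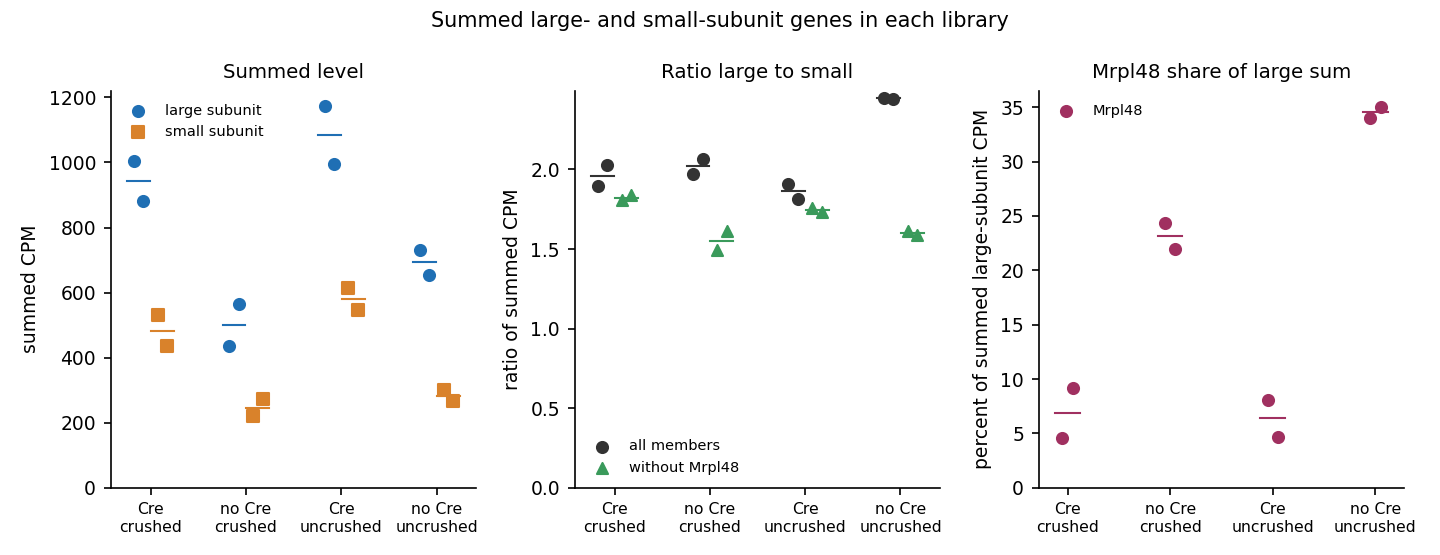
Left, summed CPM of the 48 large- and 29 small-subunit genes in each library; middle, their ratio with all members and without Mrpl48; right, the share of Mrpl48 in the large-subunit sum, with lines at the mean of 2 libraries. Both sums are higher with Cre, and the ratio of 2.45 and 2.44 in uncrushed cords without Cre becomes 1.62 and 1.59 without Mrpl48.

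Levels between genes were compared per length, as the TPM values deposited by the authors, which are scaled for depth and transcript length. The median member was at 37.1 TPM in crushed cords with Cre and 11.1 TPM in crushed cords without Cre, and at 32.2 TPM in uncrushed cords with Cre and 5.41 TPM in uncrushed cords without Cre. By the mean of each group, Mrpl48, Mrpl41, Mrpl21 and Mrpl17 were the 4 highest in crushed and in uncrushed cords with Cre. Without Cre, Mrpl48 was followed by Mrps21 in crushed cord and by Mrps12 in uncrushed cord. Mrpl41 was at 189.9 and 186 TPM in uncrushed cords with Cre and 21.1 and 20.6 TPM in uncrushed cords without Cre. Mrpl48 was at 191 and 102 TPM in uncrushed cords with Cre and 264 and 332 TPM in uncrushed cords without Cre. It led the family in every no-Cre library. Mrpl21 was at 121 and 158 TPM in uncrushed cords with Cre and 11.03 and 21.8 TPM in uncrushed cords without Cre, and with Cre both values were below both of Mrpl41. Mrpl17 was at 151 and 145 TPM in uncrushed cords with Cre and 8.59 and 13.2 TPM in uncrushed cords without Cre, and with Cre its range lay within that of Mrpl21. The lowest mean in both Cre groups was that of Mrpl1, which was at 5.55 and 10.2 TPM in uncrushed cords with Cre and 1.79 and 4.14 TPM in uncrushed cords without Cre.

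No member was called between crushed and uncrushed cord in either genotype. The nerve was crushed on 1 side and the whole cord was taken, so motor neurons of the crushed nerve were not measured apart from other cells. With Cre, crushed over uncrushed, 0 of 77 genes were called by edgeR's quasi-likelihood test, where 0.0723% of all genes were. DESeq2 also called 0 members, where it called 1.05% of all genes. At an unadjusted p under 0.05 there were 2 members, where 9.34% of all genes passed. Mrpl14, a large-subunit protein with a bacterial counterpart, had 7.595 and 5.85 CPM in crushed cords with Cre, against 19.8 and 11.6 CPM in uncrushed cords with Cre (log2 fold change -1.21 ± 0.41, adjusted p = 0.391). Mrps33 had 45.002 and 33.5 CPM in crushed cords with Cre, against 77.7 and 62.2 CPM in uncrushed cords with Cre (log2 fold change -0.83 ± 0.37, adjusted p = 0.522). In both genes the groups did not overlap. The other named genes were Mrpl35 (-0.47 ± 0.22, adjusted p = 0.545), Mrpl41 (-0.65 ± 0.30, adjusted p = 0.554), Mrpl17 (-0.49 ± 0.23, adjusted p = 0.556) and Mrps25 (-0.46 ± 0.22, adjusted p = 0.573).

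The members' values with Cre leaned lower after crush. Their median log2 fold change was -0.19, against 0.03 over all genes, and 54 of 77 were below 0. Both crushed libraries lay below both uncrushed libraries for 28 members (23.9% of all genes) and above both for 9 (26.1% of all genes). By position, all 8 exit tunnel genes were below 0 (median -0.26), as were 4 of 5 stalk genes (median -0.46). Of the central protuberance genes 5 of 8 were below 0 (median -0.05), and of all 15208 genes 7244 were. Without Cre, 5 of the 8 exit tunnel genes were above 0. Scaling by library totals alone shifted all genes upwards together: the members' median was then 0.25, against 0.47 over all genes, and 59 members were above 0. Single libraries moved the size of the lean: the members' median was -0.33 without Cre crushed animal 35 and -0.05 without animal 52, and -0.09 without Cre uncrushed animal 10. The 95% interval of the difference lay within 1 log2 unit of 0 for 35 of the 77, and for the others a 2-fold change in at least 1 direction lay within the interval. For Mrpl17 the interval ran from -0.99 to 0.01, and for Mrps34 from -1.26 to 0.55.

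Other RNAs in the same libraries also differed by crush with Cre. The 13 mitochondrially encoded mRNAs were all below 0 with a median log2 fold change of -2.34, and 1 of them, mt-Nd3, was called (log2 fold change -2.72 ± 0.38, adjusted p = 0.0243). Glial and endothelial markers were not called, but their medians were above 0: 0.73 for oligodendrocyte, 0.96 for astrocyte, 1.60 for microglial and 1.37 for endothelial markers. None of the 7 cholinergic and motor neuron markers was called, and all 7 were below 0, with a median of -0.24. They summed to 1848 and 1694 CPM in crushed cords with Cre and 1924 and 2062 CPM in uncrushed cords with Cre. Oligodendrocyte markers summed to 1079 and 1793 CPM in crushed cords with Cre and 866 and 701 CPM in uncrushed cords with Cre. The part of these shifts in the member values was not tested.

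Without Cre, 0 of the 77 genes were called by edgeR and by DESeq2. Of all genes, edgeR called 0.0723% and DESeq2 0.704%. At an unadjusted p under 0.05, 3 were higher and 13 lower, where 12.8% of all genes passed in either direction. Mrpl58 had 10.9 and 13.7 CPM in crushed cords without Cre, against 3.899 and 5.88 CPM in uncrushed cords without Cre (log2 fold change 1.30 ± 0.37, adjusted p = 0.297). Mrpl48 had 106 and 124 CPM in crushed cords without Cre, against 249 and 229 CPM in uncrushed cords without Cre (log2 fold change -1.06 ± 0.35, adjusted p = 0.299). Neither pair of groups overlapped. Mrpl36 (-1.37 ± 0.42, adjusted p = 0.297), Mrpl52 (-1.48 ± 0.47, adjusted p = 0.297), Mrps5 (-0.78 ± 0.25, adjusted p = 0.298) and Mrpl55 (-1.18 ± 0.41, adjusted p = 0.307) were also not called. The median was -0.13, against -0.03 over all genes, and both crushed libraries lay below both uncrushed libraries for 20 members (19% of all genes) and above both for 7 (19.9%). Without no-Cre crushed animal 51 the members' median was 0.03, and it was -0.36 without animal 58, -0.24 without no-Cre uncrushed animal 4 and -0.20 without animal 6. Scaled by totals alone, 4 members (Mrpl17, Mrpl58, Mrps17 and Mrps31) were called higher (5.19%, against 7.88% of all genes), and the median was 0.77, against 0.94 over all genes. Without a filter on low counts Mrpl48 was the 1 member called, and lower (log2 fold change -1.01, adjusted p = 0.0297). In that setting 1.22% of all 27670 genes were called.

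**Figure D4:**
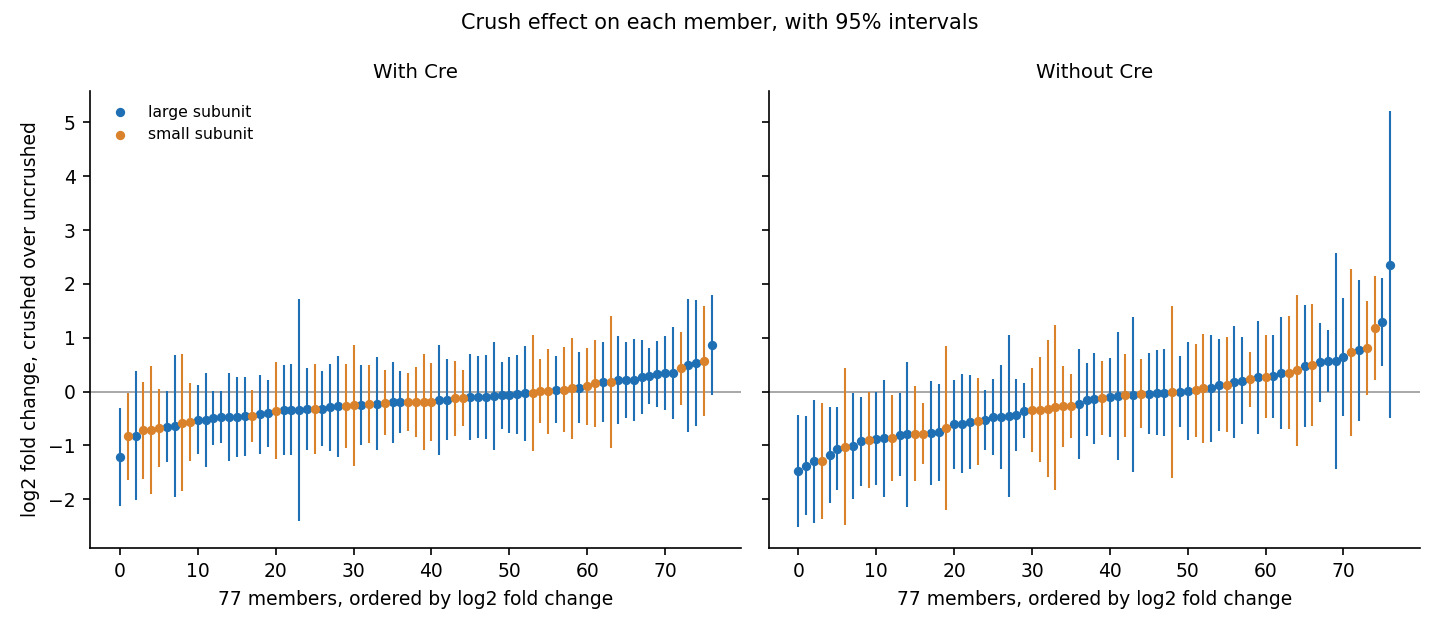
Log2 fold change of crushed over uncrushed libraries for each member, with Cre (left) and without Cre (right), ordered by value, with vertical lines for the 95% interval and colour for the subunit. No member was called in either panel, and the interval lay within 1 log2 unit of 0 for 35 members with Cre and 16 without.

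The crush effect with Cre minus that without, the interaction, called 0 of the 77 genes in edgeR (0% of all genes). DESeq2 called 0 members (0.0986% of all genes). At an unadjusted p under 0.05 there were 5 members, where 5.95% of all genes passed. These were Mrpl17 (-1.06 ± 0.35, adjusted p = 0.816), Mrps17 (-1.50 ± 0.52, adjusted p = 0.83), Mrpl58 (-1.36 ± 0.49, adjusted p = 0.83), Mrps31 (-1.42 ± 0.55, adjusted p = 0.83) and Mrpl19 (0.82 ± 0.35, adjusted p = 0.83). The interval of the interaction lay within 1 log2 unit of 0 for 4 members, so the design leaves sizeable differences undetected for most.

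Other nuclear genes of mitochondrial translation were described as lists, beside the 20.6% of all genes called higher and 21.9% called lower with Cre in uncrushed cord, and the 21.6% and 21.3% in crushed cord. Of 5 mitochondrial ribosomal proteins with other names, 3 were called higher with Cre in uncrushed cord and 2 in crushed cord. Aurkaip1, of the small subunit, had 54.5 and 46.4 CPM in uncrushed cords with Cre, against 10.5 and 13.6 CPM in uncrushed cords without Cre (log2 fold change 2.05 ± 0.40, adjusted p = 0.00215). Ptcd3, a small-subunit protein that binds RNA, had 35.8 and 48.3 CPM in uncrushed cords with Cre, against 14.8 and 12.8 CPM in uncrushed cords without Cre (log2 fold change 1.61 ± 0.29, adjusted p = 0.00151), and Dap3, also of the small subunit, rose by less (0.87 ± 0.29, adjusted p = 0.0332). Of 16 mitochondrial translation factors 7 were called higher and 2 lower in uncrushed cord, and 5 higher and 3 lower in crushed cord. Tufm, the mitochondrial elongation factor Tu, had 39.4 and 35.05 CPM in crushed cords with Cre, against 10.4 and 9.33 CPM in crushed cords without Cre (log2 fold change 1.91 ± 0.37, adjusted p = 0.00225), and Gfm1, the mitochondrial elongation factor G, had 58.5 and 63.5 CPM in crushed cords with Cre, against 26.3 and 14.8 CPM in crushed cords without Cre (1.56 ± 0.29, adjusted p = 0.00163). Guf1, a relative of bacterial LepA, went the other way in uncrushed cord, with 7.68 and 5.65 CPM in uncrushed cords with Cre, against 23.01 and 21.9 CPM in uncrushed cords without Cre (-1.76 ± 0.30, adjusted p = 0.00119).

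Of 24 genes for assembly of the mitochondrial ribosome 1 was called higher and 3 lower in uncrushed cord, and 2 higher and 3 lower in crushed cord, with median log2 fold changes of 0.25 and 0.46, against -0.03 and -0.08 over all genes. Mterf3, which acts in biogenesis of the large subunit, had 16.1 and 10.5 CPM in uncrushed cords with Cre, against 30.02 and 35.5 CPM in uncrushed cords without Cre and fell (-1.31 ± 0.30, adjusted p = 0.00518). Mettl17, which acts on the small subunit, fell in uncrushed (-1.77 ± 0.47, adjusted p = 0.0115) and in crushed cord (-1.67 ± 0.43, adjusted p = 0.0104). Ngrn, needed for the large ribosomal RNA, rose in uncrushed cord (1.50 ± 0.41, adjusted p = 0.0135), and Ddx28, a helicase of large-subunit assembly, rose in crushed cord (1.89 ± 0.46, adjusted p = 0.00714). Of 9 genes of mitochondrial transcription and genome maintenance 1 was called higher and 1 lower in uncrushed cord, and 0 higher and 1 lower in crushed cord. The one called lower in both was Polg2, the accessory subunit of the mitochondrial DNA polymerase (-2.27 ± 0.52, adjusted p = 0.0055, in uncrushed cord). No test compared the lists with each other.

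The RNAs made inside mitochondria went opposite to the nuclear genes for the ribosomal proteins. All 13 mitochondrially encoded mRNAs were called lower with Cre in uncrushed (median log2 fold change -3.08) and crushed cord (-3.83), as were both mitochondrial ribosomal RNAs. Mitochondrial ribosomal RNA took 5.53 and 2.33% of counts in uncrushed cords with Cre, against 48.2 and 32.7% in uncrushed cords without Cre. In crushed cord it took 1.61 and 4.68% with Cre, against 11.5 and 39.9% without. With mitochondrially encoded genes left out, 46 members were called higher (59.7%, against 21.8% of all genes) and 1 lower in uncrushed cord, and 49 higher in crushed cord (63.6%, against 22.6%). With libraries scaled by totals alone, 57 were called higher in uncrushed (74%, against 31.3%) and 46 in crushed cord (59.7%, against 18.7%), and the median of all genes in uncrushed cord was then 0.65.

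Counts of some members may hold reads of other genes, which was not tested. By annotated gene spans, introns included, 36 of the 77 overlap another gene in the data. Of these, 13 have a partner with more counts. Shared exons were not examined. Of the 41 members with no overlap, 22 were called higher with Cre in uncrushed and 27 in crushed cord. Mrps34 overlaps Mapk8ip3 on the opposite strand, which has more counts, and Mrpl36 overlaps Ndufs6 in the same way. Mrpl23 had 0 and 3 counts in uncrushed cords without Cre, was not called, and has a pseudogene, Mrpl23-ps1, with up to 93 counts in a library, so its values are uncertain.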

How the data were processed

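Ribosome-associated mRNA was sequenced in 8 spinal cords, 2 in each of 4 groups taken from the titles. The authors made the gene tables with Bowtie2 2.2.0 and RSEM 1.2.12, per the submitters' processing notes; the genome build is not given. The expected counts deposited by the authors are estimated reads per gene without scaling, and were rounded to whole numbers. TPM values deposited by the authors, scaled for depth and transcript length, served to compare genes. The deposited average transcript lengths (other columns, in bases) are RSEM's; FPKM was not used. Symbols matched 37607 of 38924 gene identifiers (96.6%), and promoters came from RefSeq.

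Counts were filtered with filterByExpr (minimum count 10, minimum total 15), scaled by TMM and fitted in edgeR 4.0.16 (R 4.3.3) with 1 mean per group over all 8 libraries (4 residual degrees of freedom). Quasi-likelihood tests were two-sided, with Benjamini-Hochberg adjustment over all 15208 genes and a threshold of 0.05. A standard error is the log2 fold change divided by the root of its F statistic. CPM uses TMM-scaled totals, of which 3 counts are 0.19 to 1.17 CPM; such limits cover counting error only.

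Members and lists were chosen with earlier results of these data known. The text names, for each comparison, up to 6 called members with the smallest p in each direction (or the 6 with the smallest p), a set by role, the 3 highest and 3 lowest per length, and up to 3 genes of each other list. Alternatives were DESeq2 1.42.0 and its size factors, library totals, TMM without mitochondrially encoded genes, no filter, only the compared groups, the genotype entry as group, leaving out both contradictory libraries or each library in turn, age as covariate, subunits by structure, and Mrpl48 left out (added after seeing the data). The scripts were tested on simulated data.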

Additional observations from a re-analysis of the deposited data

How the results depend on the processing

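No paired analysis was possible because the groups share no replicate number. Members called were 43 in uncrushed and 47 in crushed cord. With only the groups compared in the fit, uncrushed cord had 28 called higher and 1 lower. Crushed cord then had 53 called higher and 2 lower. Leaving out 1 library gave 22 to 45 in uncrushed cord (22 without Cre uncrushed animal 10, 27 without animal 3) and 14 to 55 in crushed cord (14 without Cre crushed animal 35, 23 without no-Cre crushed animal 51). Without both libraries with contradictory entries 26 were called in uncrushed cord, and with age as covariate 15 in crushed cord. With the genotype entry as group, 0 members and 0 of all 15208 genes were called in either comparison. The crushed groups hold the same libraries in both groupings, while the estimate of spread is shared with the uncrushed libraries. The members' median log2 fold change in crushed cord was 1.24 in both groupings, with 73 of the 77 above 0. In that grouping the uncrushed log2 fold changes were -0.10 for Mrpl21, 0.32 for Mrpl48, -0.25 for Mrpl10, -0.37 for Mrpl3, -0.00377 for Mrpl58, -0.24 for Mrps18a and -0.38 for Mrps34, each turned in direction. In uncrushed cord 55 of the 77 members were then above 0, against 72 by title, and the members' median log2 fold change for crush was 0.15 with Cre and -0.80 without. Its 2 uncrushed groups each hold 1 library with Cre and 1 without by title. Crush without Cre called 4 members with scaling by totals (7.92% of all genes were called) and 1 without the filter (1.22%). No other setting called a member for crush or for the interaction. The cause was not tested.

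The sums in CPM moved with scaling. By totals alone the large sum was 1284 in crushed cords with Cre, 595 in those without and 427.5 in uncrushed cords without Cre, and the small sum 658, 296 and 175. With mitochondrially encoded genes left out, whose counts then leave the totals, the large sum was 1348 with Cre and 677 without in crushed cord and 1552 with Cre and 944 without in uncrushed cord, and the small sum 689.9, 335, 831 and 386. Without Mrpl48 the large sum was 384 in crushed and 454 in uncrushed cords without Cre. The ratio of sums by structure was 2.195 with Cre and 2.18 without in crushed cord, and 2.05 with Cre and 2.68 without in uncrushed cord. Without Mrpl48 it was 1.82 with Cre and 1.55 without in crushed cord, and 1.74 with Cre and 1.60 without in uncrushed cord. Over the named genes and settings, 2303 values kept their side of the threshold, 106 lost it and 34 gained it with the same sign, and 7 turned with a call on 1 side; 175 of the 2303 changed sign with neither value called. Depth limits chiefly the libraries without Cre, where 3 counts are up to 1.17 CPM.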
